A study of Capra hircus with 4 samples.

Results

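The Secondary stage was one of 4 follicle stages, Primordial, Primary, Secondary and Antral, into which the authors divided the granulosa nuclei of the goat ovary. Its members were the 1305 genes listed under Secondary in the deposited table of stage genes, out of 3231 genes listed under any stage and 28944 genes counted in the nuclei. For each gene the table gave the share of nuclei of the stage in which the transcript was detected and the share in the nuclei of the other stages, both pooled over the 4 goats, so these shares carry no replicate error. Choice of a gene for the table and its shares came from the same nuclei, so the stage differences are given as a description with no test.

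The nuclei came from the left ovaries of 2 Du'an goats with a litter size of 1 and 2 Nubian goats with a litter size of 3. All 4 goats were about 3 years old, and all had carried a CIDR, an intravaginal device holding 300 mg of progesterone, for 17 days, after which the ovaries were taken in the follicular phase. No group was left without this hormone treatment, so its effect cannot be told apart from the state of the ovaries. The deposited matrices held 9364 and 10893 nuclei for the Du'an goats and 16988 and 11087 for the Nubian goats, with 40573246, 60566681, 71613892 and 52783453 unique molecular identifiers (UMIs) in total. Between 54 and 131 nuclear barcodes were shared by any pair of libraries, at most 1.40% of the smaller one.

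Granulosa cells surround and nourish the oocyte. A follicle becomes secondary when its single layer of granulosa cells divides into several layers around the growing oocyte, while a basal lamina encloses the layers from outside and the theca begins to form. Granulosa cells of this phase respond to follicle-stimulating hormone, and the aromatase and luteinizing hormone receptor that mark the mural cells of large antral follicles come later.

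The size of the stage was solved from the detection shares themselves, because the share in the other stages is the weighted mean of the stages that are left. Secondary held 16.0% of the granulosa nuclei (standard error 0.0165 over 2680 pairs of shares), against 29.8% for Primordial, 22.0% for Primary and 32.3% for Antral. It was the smallest of the 4 stages. These percentages summed to 100.1%, and the equations left a residual of 0.0340 points, which is within the rounding of the deposited shares.

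How each nucleus was given its stage is not given in the sources used here. The label was therefore set against the markers of follicle stages and cell types. Oocyte genes were near 0 in the granulosa nuclei of each goat, where all 10 together summed to between 2.75 and 5.34 CPM (UMIs per 1000000 UMIs of the same nuclei), and none was listed under any stage. AMH, made by granulosa cells of growing follicles, was listed under Primary alone at 28.8% of nuclei. None of the genes of the mural and steroid list was listed under Secondary, and 7 of them, among them the steroidogenic enzymes CYP19A1 and CYP11A1, were listed under Antral. These markers separated Secondary from Antral but did not define it, so the name is used below as the authors gave it.

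Of the 1305 genes, 110 (8.43%) were listed under no other stage, 739 were listed under 1 more stage and 456 under 2 more. Genes in a single stage were more frequent in Primordial (582 of 1461, 39.8%), Primary (214 of 1457, 14.7%) and Antral (563 of 1229, 45.8%). Secondary shared 887 genes with Primary, which was 68.0% of the Secondary list and 60.9% of the Primary list. It shared 452 genes with Primordial (34.6% of Secondary and 30.9% of Primordial) and 312 with Antral (23.9% and 25.4%). Within the shared genes the detection share was higher in Secondary than in Primordial for 405 of 452, while it was lower in Secondary than in Primary for most, being higher in 232 of 887. Secondary was thus described largely by genes that it shared with the stage before it, at detection shares a median of 1.4 points below those of Primary.

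The same likeness was seen over the 459 genes listed in 3 stages, where the detection shares of Secondary correlated with those of Primary at r = 0.979, with Antral at 0.914 and with Primordial at 0.912. These points are genes of the same pooled nuclei, and the correlations are descriptions. In the authors' other division of granulosa nuclei, into common progenitor, cumulus and mural cells, 1008 of the Secondary genes (77.2%) were listed under cumulus cells, 476 under progenitor cells and 285 under mural cells.

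The difference between the Secondary share and the share in the other stages was small for most genes. Its median was 4.4 points and its range -1.1 to 31.7 points. A difference of at least 10 points was found for 211 genes, of at least 5 points for 589 and of at least 20 points for 23. At the 10-point limit, ESR1 was among those just outside at 74.3% against 64.4% and LIN54 among those just inside at 27.5% against 17.5%. Among the 110 genes listed under Secondary alone, 38 reached 10 points, and among the 887 shared with Primary 152 did.

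**Figure D1:**
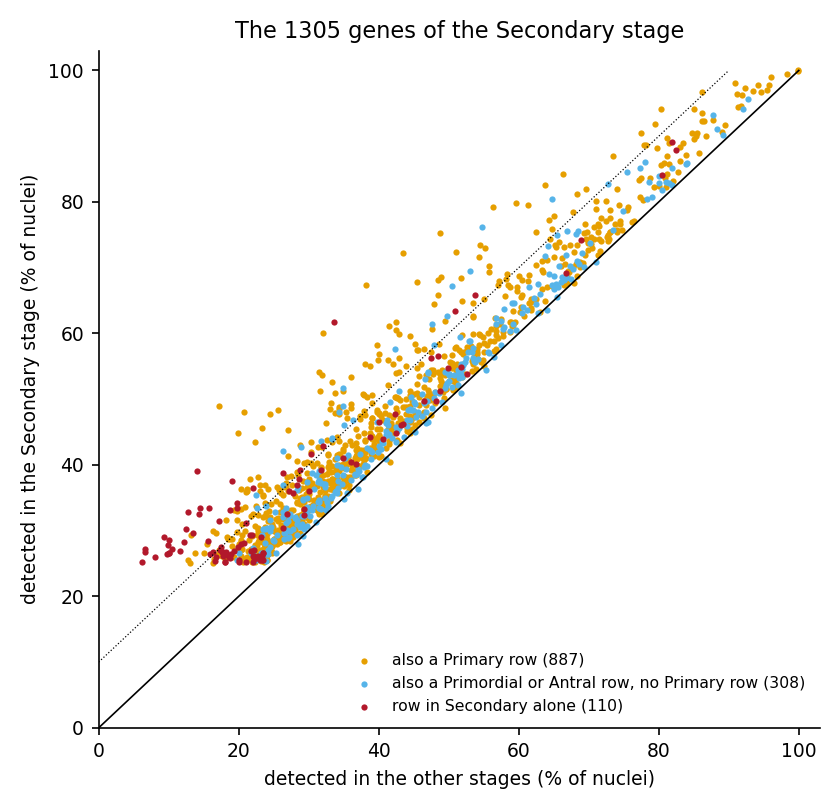
Share of nuclei with the transcript in the other stages (x axis, percent) and in Secondary (y axis, percent) for the 1305 genes, coloured by the other stages that list them; the solid line marks equal shares and the dotted line a difference of 10 points. Most genes lie within 10 points of equality, and the 211 genes above the dotted line include 38 of the 110 listed under Secondary alone.

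The gene that stood furthest from the other stages was STK32B, a serine/threonine kinase, detected in 48.9% of Secondary nuclei and 17.2% of the others. Its share in Primary was 28.6%, so it also had the largest gap above Primary of any shared gene, 20.3 points. The mean of Primordial and Antral, where it was not listed, was solved as 13.1%. Among the 15 genes with a gene symbol and the largest differences, 14 were listed under Primary too, and 7 of these had a higher share in Primary than in Secondary. An entry without a symbol, LOC108635081, was listed under Secondary alone with 61.7% against 33.6% and would have stood among them. These shares are pooled over goats that differed widely for single genes, as given below. The deposited nuclei carry no stage names, so whether this order holds within each goat was not tested.

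Several of these 15 genes encode enzymes and transporters. ACSBG1, an acyl-CoA synthetase that activates long-chain fatty acids, was detected in 67.3% of Secondary nuclei, 38.2% of the others and 70.5% of Primary nuclei. SLC7A1, a transporter of cationic amino acids, followed the same order at 60.0%, 32.0% and 70.4%. For both genes the Primary share was the higher one, and the mean over Primordial and Antral was 26.6% for ACSBG1 and 18.3% for SLC7A1.

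A second group among the 15 has roles in calcium handling and at membranes. RYR2, a calcium release channel, was detected in 79.2% against 56.3%, and CACNA2D3, an auxiliary subunit of voltage-gated calcium channels, in 48.1% against 20.8%. PCLO, a scaffold protein first known from synapses, was detected in 72.3% against 43.5%, with 77.8% in Primary. CTNND2, a delta-catenin, reached 45.6% against 23.3%, and ASTN2, an astrotactin, 48.4% against 25.6%. The Primary shares of CTNND2 (42.1%) and ASTN2 (46.3%) were below those of Secondary. Those of RYR2 (80.5%) and CACNA2D3 (50.6%), like that of PCLO, were above.

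Genes of the cytoskeleton, of chromatin and of protein folding were also in the leading set. The matrix genes COL4A3 and HSPG2 and the mitosis gene DIAPH3 belonged to it too and are given below with their lists. PAK1, a kinase downstream of Rac and Cdc42, was detected in 54.2% against 31.5%, SEPT4, a septin, in 47.7% against 24.5%, and DPF3, a subunit of BAF chromatin remodelling complexes, in 53.6% against 31.9%. In Primary PAK1 was higher than in Secondary at 55.7%, and SEPT4 (45.4%) and DPF3 (48.6%) were lower. HSPA8, the constitutive HSP70 chaperone, was detected in 44.9% against 19.9%, and its share in Primary was nearly the same at 44.5%.

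**Figure D2:**
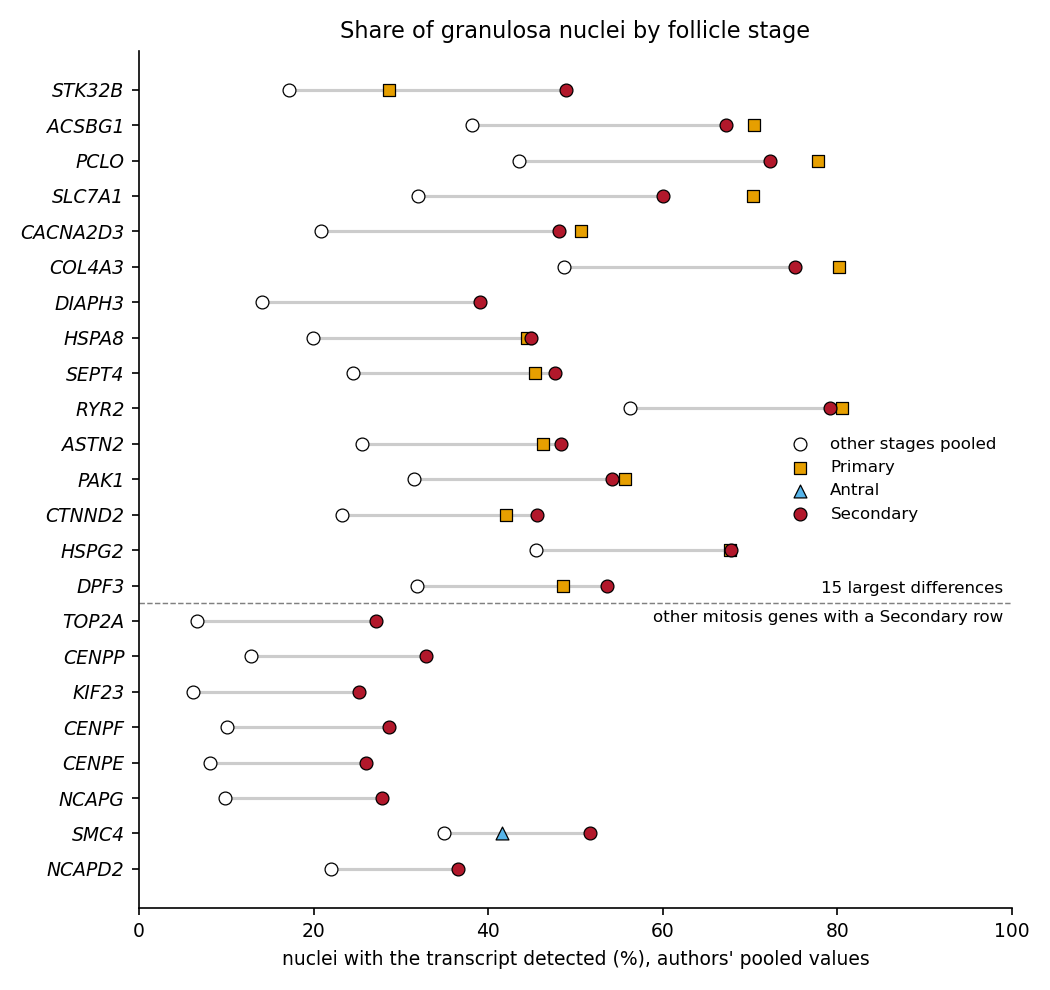
Share of nuclei with the transcript detected (x axis, percent, pooled values of the authors) for the 15 Secondary genes with the largest difference and for the other mitosis genes of the stage; filled circles are Secondary, open circles the other stages pooled, squares Primary and triangles Antral, each shown where the table lists the gene. Primary lies close to Secondary for most of the leading genes, while of the 9 mitosis genes only SMC4 has a value in a further stage. Rarely detected genes can be listed only through a stage where they are high.

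The genes of cell division that were listed at all stood almost wholly under Secondary. Of 30 genes on the mitosis list, 9 were listed under any stage, all 9 were listed under Secondary, each by at least 10 points, and 8 of them under Secondary alone. A gene is listed only where at least 25.1% of nuclei on 1 side of the comparison express it. KIF23 (25.2% of Secondary nuclei), CENPE (26.0%) and TOP2A (27.2%) lay just above that floor. Genes detected this rarely elsewhere can be listed only through a stage where they are high. For them a wide gap and a single stage follow from the floor. For comparison, 40.4% of all genes listed under any stage were in Secondary. Of all Secondary genes 16.2% reached 10 points and 8.43% were listed under no other stage. The Secondary genes had a median share of 43.5%, so these percentages are no like background. The counts are therefore no measure of stage specificity. DIAPH3, a formin that acts in cytokinesis, was detected in 39.1% of Secondary nuclei and 14.1% of the others. TOP2A, the topoisomerase that untangles sister chromatids, was detected in 27.2% against 6.6%.

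The kinetochore and spindle genes of the list followed the same pattern. CENPF was detected in 28.6% against 10.1%, CENPE in 26.0% against 8.1%, CENPP in 32.9% against 12.8%, and KIF23, a kinesin of the central spindle, in 25.2% against 6.2%. The condensin genes NCAPG (27.8% against 9.9%) and NCAPD2 (36.5% against 22.0%) were again listed under Secondary alone. SMC4, the condensin subunit with the highest share (51.7%), was listed under Antral as well at 41.6%, and the mean of Primordial and Primary was 30.6%.

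From the DNA replication list 3 of 30 genes were listed under any stage and all 3 under Secondary by at least 10 points. The limit set by the floor of the listing holds for rarely detected genes here too. BRIP1, a DNA helicase of repair, was listed under Secondary alone (32.6% against 14.4%). ATAD2 was detected in 57.7% of Secondary and 43.9% of Primordial nuclei, and POLA1, the catalytic subunit of DNA polymerase alpha, in 43.7% of Secondary and 36.3% of Antral nuclei. Further division and repair genes outside the lists were seen among the genes of Secondary alone and were chosen after their values were seen. They included CIT (29.0% against 9.4%), KIF20B (37.5% against 19.0%) and LMNB1 (29.6% against 13.5%).

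Genes of cholesterol synthesis and uptake were the next group, with 7 of the 8 listed genes in Secondary and the same number in Primary. MSMO1, a sterol oxidase of the pathway, was detected in 43.5% of Secondary, 39.5% of Primary and 41.2% of Antral nuclei, while Primordial was solved at 12.0%. SQLE, which makes squalene epoxide, followed at 28.3%, 27.8% and 26.8%, with Primordial at 7.7%. Both had their highest share in Secondary. SREBF2, a transcription factor of the pathway, was listed with 43.8% in Secondary and 47.1% in Antral, and LSS, which closes the sterol rings, with 27.0% in Secondary and 31.9% in Primary.

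Of the 26 genes on the basal lamina and matrix list 10 were listed under any stage and 5 of these under Secondary, 4 of them by at least 10 points. Of all genes listed under any stage 40.4% were in Secondary. COL4A3 and COL4A4, chains of type IV collagen, were detected in 75.2% and 79.6% of Secondary nuclei and in 80.2% and 82.6% of Primary nuclei. HSPG2, which encodes perlecan, was at 67.8% and 67.7%, and ITGA6, a laminin receptor subunit, at 75.5% and 84.3%. LAMC1, a laminin chain, was listed with 41.5%. None of the 5 was listed under Antral.

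Of the 17 granulosa identity genes listed under any stage, 5 were listed under Secondary, 9 under Primary and 11 under Antral. FSHR, the receptor for follicle-stimulating hormone, was detected in 96.7% of Secondary and 98.1% of Primary nuclei. CHST8, a sulfotransferase, was at 48.7% and 54.4%, and GATA4, a transcription factor of the gonads, at 71.0% and 69.9%. FST, which encodes the activin-binding protein follistatin, had another order, with 55.0% in Secondary, 61.6% in Primary and 70.7% in Antral.

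The genes of the mural and steroid list that were listed anywhere, 7 in all, were all listed under Antral and none under Secondary. CYP19A1, the aromatase, was detected in 91.8% of Antral nuclei, and the mean of the other stages was solved as 20.2%. LHCGR, the luteinizing hormone receptor, stood at 82.6% and 16.4%. The inhibin subunit genes INHA, INHBA and INHBB were likewise listed under Antral alone.

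The signalling lists are read against the same 40.4%. Of the TGF-beta family list 5 of 13 listed genes were in Secondary (TGFBR3, SMAD2, SMAD5, ACVR2A and TGFBR1), of the WNT list 5 of 9 (TLE4, ZNRF3, CTNNB1, LRP6 and APC), and none of these 10 reached 10 points. The IGF and PI3K list gave 3 of 15 (IGFBP2, RPTOR and IGF1R), the junctions and adhesion list 2 of 13 (CDH2 and MAGI1), the NOTCH list 1 of 5 (NOTCH2) and the Hippo list 1 of 7 (TEAD1). IGFBP2, which binds insulin-like growth factors, was detected in 35.3% of Secondary and 48.0% of Primary nuclei. The progenitor side list (5 listed genes, all in Primordial) and the cell death and atresia list (4 listed genes) had no gene in Secondary.

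**Figure D3:**
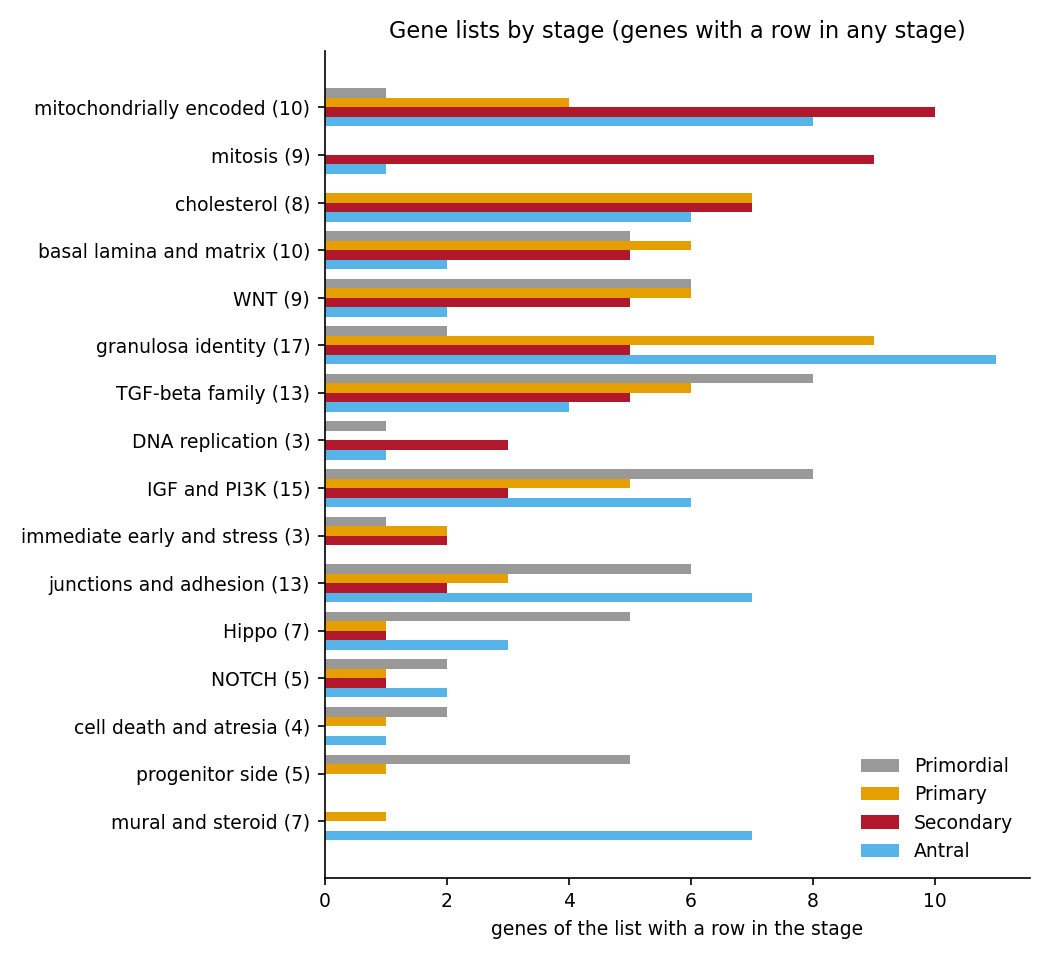
Number of genes of each fixed list (x axis) that the table lists under Primordial, Primary, Secondary and Antral (bars), with the number listed under any stage in brackets. Secondary has all 9 mitosis genes and all 10 mitochondrially encoded genes, and none of the 7 mural and steroid genes.

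Beside these groups stood genes that can follow the handling of nuclei. All 10 mitochondrially encoded genes listed under any stage were listed under Secondary, 8 of them under Antral and 4 under Primary, and 2 reached a difference of 10 points in Secondary. ATP6, a subunit of ATP synthase, was detected in 80.4% of Secondary, 76.9% of Primordial and 74.1% of Antral nuclei, while Primary was solved at 34.6%. COX2, a subunit of cytochrome oxidase, was detected in 69.5% of Secondary and 66.0% of Antral nuclei. Of the stress genes, HSPA8 and HSP90AA1 were listed under Secondary, the second at 32.6% against 25.1% in Primary, and none of FOS, JUN or EGR1 was listed.

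A library stood apart for 2 of these mitochondrial genes. In granulosa nuclei ATP6 was at 785, 1946 and 1802 CPM in Du'an goat 1, Nubian goat 1 and Nubian goat 2 and at 0.870 CPM in Du'an goat 2. COX2 was at 417, 1041 and 788 CPM in the same 3 goats and at 1.08 CPM in Du'an goat 2. COX3, next to them on the mitochondrial chromosome, was at 5705 CPM in Du'an goat 2, the highest of the 4 goats. ATP8, which no stage lists, was likewise at 0 CPM in Du'an goat 2, against 6.83, 12.7 and 5.54 CPM in the same 3 goats. Whether this library was counted with a different gene annotation was not tested. The part of this library in the stage shares of ATP6 and COX2, and in the Primary share solved for ATP6, was not tested either.

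Of the markers of other cell types, 2 were listed under Secondary. Of the marker lists for theca, stromal cells, fibroblasts, pericytes, blood endothelium, T or natural killer cells, macrophages, B cells, epithelium and ciliated cells, no gene was listed under Secondary. MYH11, a smooth muscle myosin, was listed at 56.9% of Secondary and 59.9% of Primary nuclei, and MMRN1, a marker of lymphatic endothelium, at 48.8% and 60.4%. In granulosa nuclei MYH11 was at 171, 326, 297 and 163 CPM in the 4 goats, and in the nuclei that led with the markers of another cell type at 385, 139, 409 and 217 CPM, so it was higher in granulosa nuclei of Du'an goat 2. MMRN1 was at 260, 429, 113 and 240 CPM against 191, 670, 249 and 210 CPM, higher in granulosa nuclei of Du'an goat 1 and Nubian goat 2. SYNPO2, of the smooth muscle list, was also abundant in granulosa nuclei, at 442, 150.2, 372 and 584 CPM. The other markers of both lists were each at 39.9 CPM or less there, with ACTA2 at 17.0, 8.13, 39.9 and 12.7 CPM and LYVE1 at 0.824, 1.05, 1.65 and 0.416 CPM. The summed smooth muscle list was at 671, 513, 763 and 787 CPM in granulosa nuclei, led by SYNPO2 or MYH11, and at 2717, 747, 2870 and 1514 CPM in the nuclei that led with the markers of another cell type.

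At the other end of the list 15 genes had a lower share in Secondary than in the other stages. PARN, a nuclease that removes poly(A) tails, was detected in 40.5% of Secondary and 41.6% of other nuclei, and the 10 lowest genes differed by -0.2 to -1.1 points. ZRANB2, RBMX, PPM1B, SMG1, CSNK2A1, SAFB, UTP6, RFWD2 and HP1BP3 made up the rest of these 10. Most of them encode RNA-binding and chromatin proteins, kinases or phosphatases found in many cell types.

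The nuclei deposited for each goat carry no stage names, so the Secondary genes were next followed in granulosa nuclei gated by 11 markers, of which at least 3 had to be detected. The gate held 3828 and 5223 nuclei of the Du'an goats and 9082 and 4561 nuclei of the Nubian goats, with median depths of 4567, 5631, 3468 and 4198 UMIs. Over the 1305 genes the detection share in the gated nuclei of all goats correlated with the share in all granulosa nuclei of the authors at r = 0.999, with a largest gap of 3.22 points. Nuclei outside the gate were shallower, with medians of 1076, 2013, 1326 and 1068 UMIs. They included 856, 517, 793 and 1402 nuclei that did not clearly lead with another marker list either. Granulosa transcripts were not absent from them. FSHR was at 467, 377, 492 and 300 CPM there, against 2009, 2672, 1910 and 1804 CPM in gated nuclei. The other nuclei are thus not free of granulosa signal, and its source was not tested. Levels below are UMIs summed per goat and scaled to CPM, which are not corrected for gene length, so they are compared between nuclei and goats and not between genes.

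To see whether the genes of the stage were granulosa genes at all, these sums were compared between gated and other nuclei within each goat with edgeR. Of 16258 genes tested outside the markers, 23.1% were higher and 30.9% lower in granulosa nuclei at an adjusted p under 0.05. Of the 1297 Secondary genes that the gate did not use, all of which could be tested, 842 (64.9%) were higher and 51 (3.93%) were lower. The table lists a gene only where at least 25.1% of nuclei on 1 side of the comparison express it, so genes listed under other stages are the nearer background, and of the 1919 genes listed under other stages but not Secondary 50.3% were higher and 6.62% lower. The shares for genes listed under Primary and Antral were 64.1% and 62.6%, and for Primordial 44.2%. The median log2 fold change was 0.48 for the Secondary genes and -0.04 for all genes tested.

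These fold changes depend on the scaling. They were fitted with TMM factors, which assume that most genes do not differ, and with library sizes alone, the scale of the CPM values below, the median of all genes was lower by 0.29 on the log2 scale. On that scale, tried after seeing the data, 435 Secondary genes (33.5%) were higher and 97 (7.48%) lower, against 10.1% and 39.4% of all genes tested and 23.3% and 13.4% of the genes listed under other stages but not Secondary. The counts for Primary and Antral (33.6% and 33.4% higher) were again close to that of Secondary, and the median log2 fold change of the Secondary genes was 0.20. Among the genes with the largest stage differences, calls that were lost on that scale are named below. For most of the gene lists the counts on that scale are given instead, and not every lost call is named.

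The mitosis genes of Secondary were higher in granulosa nuclei in all 9 cases, with a median log2 fold change of 1.51. TOP2A was at 45.7, 44.4, 104 and 57.3 CPM in the granulosa nuclei of Du'an goats 1 and 2 and Nubian goats 1 and 2. In the other nuclei of the same goats it was at 11.2, 30.1, 28.9 and 21.1 CPM. The values of the granulosa nuclei lay above all those of the other nuclei, and the log2 fold change was 1.75 ± 0.24 (SE, n = 4 goats, edgeR adjusted p = 0.00147). Each SE of an edgeR fold change, here and between breeds, was derived from the fold change and the F statistic of the fit. It is not the spread of the single goats for that gene. On the whole mitosis list 26 of 30 genes were higher and none lower, and with library sizes alone 23 were higher, all 9 of Secondary among them.

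DIAPH3 was at 139, 143, 279 and 243 CPM in granulosa nuclei and at 48.2, 58.6, 110 and 70.9 CPM in other nuclei. Each goat showed the difference, and its log2 fold change was 1.77 ± 0.13 (SE, n = 4, edgeR adjusted p = 0.000115). In the DNA replication group ATAD2 and BRIP1 were higher in granulosa nuclei (log2 fold changes 1.02 ± 0.17 and 0.78 ± 0.15), and POLA1 did not pass the test (0.30 ± 0.17, edgeR adjusted p = 0.174).

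Of the 15 leading genes 14 were higher in granulosa nuclei, and 12 with library sizes alone, where STK32B and HSPG2 lost the call (edgeR adjusted p = 0.11 and 0.0923). ACSBG1 was at 194, 315, 223 and 208 CPM in the granulosa nuclei of the 4 goats and at 34.9, 51.8, 60.5 and 30.9 CPM in the other nuclei. The ranges did not overlap, and the log2 fold change of 2.71 ± 0.18 (SE, n = 4, edgeR adjusted p = 8.39e-05) was the largest of the 15. PCLO (2.32 ± 0.20), COL4A3 (2.08 ± 0.16), SEPT4 (2.07 ± 0.15) and SLC7A1 (1.83 ± 0.19) followed. STK32B was at 84.5, 104, 162 and 105 CPM in granulosa nuclei and at 95.5, 27.2, 108 and 72.7 CPM in the other nuclei. The ranges overlapped and Du'an goat 1 was higher in the other nuclei, so that its log2 fold change of 0.99 ± 0.32 passed the test narrowly (edgeR adjusted p = 0.0389) and lost the call when any one of the other 3 goats was left out (adjusted p = 0.0531 to 0.0821).

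HSPA8 was the exception among the 15. It was at 165, 101, 67.7 and 123 CPM in granulosa nuclei and at 87.1, 128, 99.1 and 122 CPM in other nuclei. Du'an goat 1 and Nubian goat 2 were higher in granulosa nuclei and the other goats lower, and the difference did not pass the test (log2 fold change 0.29 ± 0.23, edgeR adjusted p = 0.325). HSP90AA1, a chaperone of the same stress list, was lower in granulosa nuclei (-1.01 ± 0.21, adjusted p = 0.00721).

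**Figure D4:**
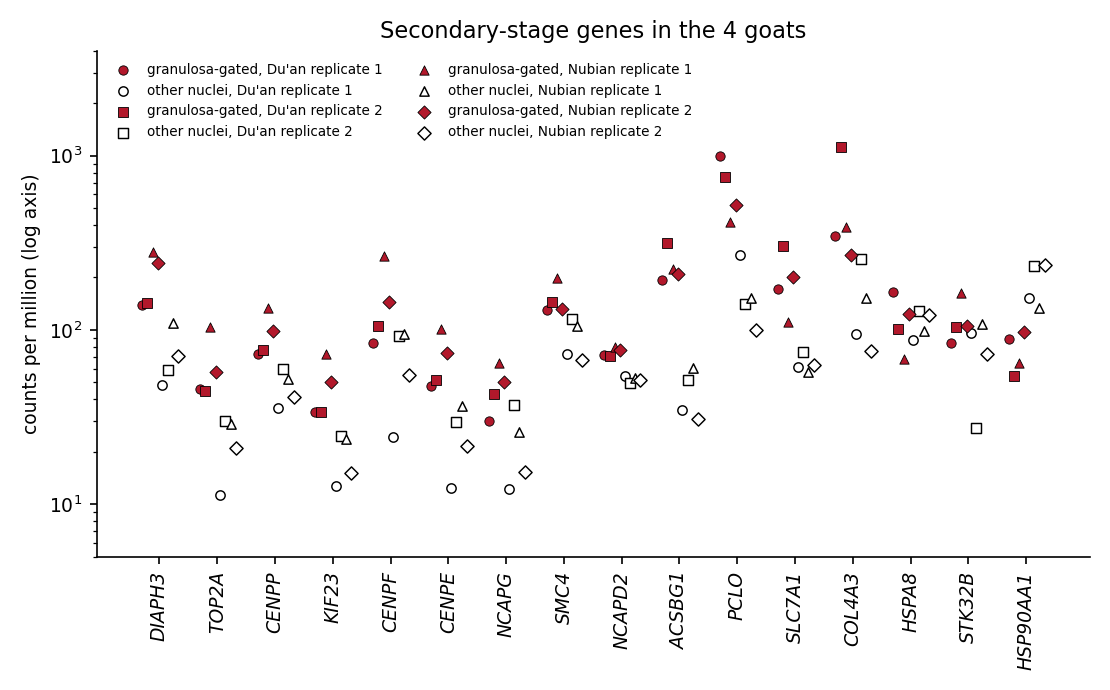
Level of 16 Secondary genes in granulosa-gated nuclei (filled) and in all other nuclei (open) of the same ovary, in CPM on a log axis, each symbol shape standing for 1 goat. The 9 mitosis genes, at the left, lie higher in granulosa nuclei in each of the 4 goats, while HSPA8 overlaps and HSP90AA1 lies lower.

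All 7 cholesterol genes of Secondary were higher in granulosa nuclei, with a median log2 fold change of 1.58 (1.30 with library sizes alone, all 7 still higher). SQLE was at 41.9, 92.0, 92.5 and 45.3 CPM in granulosa nuclei and at 16.5, 33.9, 31.0 and 18.1 CPM in the other nuclei. The ranges did not overlap, and the log2 fold change was 1.71 ± 0.11 (SE, n = 4, edgeR adjusted p = 8.61e-05). Of the 5 basal lamina genes 4 were higher (3 with library sizes alone), and LAMC1 did not pass the test (0.23 ± 0.18, edgeR adjusted p = 0.324). Its level was 136 ± 21.1 CPM in granulosa nuclei and 143 ± 31.0 CPM in the others (SD, n = 4). On the whole matrix list, in contrast, 6 of 24 genes were higher and 13 lower.

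The signalling members were fewer, and their counts are read against the 64.9% of all Secondary genes that were higher. Higher in granulosa nuclei were 3 of 5 TGF-beta, 4 of 5 WNT, 3 of 3 IGF and PI3K and 1 of 2 junction genes, and also NOTCH2 and TEAD1, with none lower. With library sizes alone these counts were 2, 1, 2 and 1, and neither NOTCH2 nor TEAD1 passed, so most of the WNT calls rested on the scaling. The whole lists, most of whose genes are not in Secondary, were split or went the other way, with 8 of 26 TGF-beta genes higher and 9 lower, 8 of 30 WNT genes higher and 11 lower, 9 of 23 IGF and PI3K genes higher and 8 lower, and 3 of 15 NOTCH genes higher and 9 lower. In the Hippo list 4 of 15 were higher and 4 lower, and in the junctions list 9 of 18 and 4. With library sizes alone the higher and lower counts were 6 and 9 (TGF-beta), 4 and 14 (WNT) and 6 and 9 (IGF and PI3K). They were 2 and 11 for NOTCH, 1 and 5 for Hippo and 6 and 4 for junctions. When 1 goat was left out, 1 to 5 Hippo genes and 5 to 8 junction genes were higher. TEAD1 lost its call without Du'an goat 1, Du'an goat 2 or Nubian goat 2. Without the goat as a block 3 WNT genes were higher and 9 lower. The 10 mitochondrially encoded genes were all lower in granulosa nuclei (median log2 fold change -1.12, or -1.40 with library sizes alone, where all 10 were lower too), and 3 of them were lower without the goat as a block. Of the 10 genes with the lowest stage differences 6 were higher, with log2 fold changes of 0.33 to 0.47, but none with library sizes alone, where all 10 lay between -0.18 and 0.18. HP1BP3 was at 106, 104, 95.1 and 114 CPM in granulosa nuclei and at 105, 98.7, 100.5 and 102 CPM in the others, which overlapped.

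The study set the breeds against each other as prolific and less prolific goats. The Secondary genes in granulosa nuclei were then compared between these breeds. Both Du'an goats had a litter size of 1 and both Nubian goats of 3, so litter size cannot be told apart from breed. With 2 goats in each breed edgeR called none of the 15256 genes tested (0%), and so none of the 1305 Secondary genes. On simulated counts this test called 5% of 2-fold and 71% of 4-fold changes. The absence of calls therefore does not show that the breeds were alike. At an unadjusted p under 0.05 there were 409 genes (2.68%), of which 40 were Secondary genes (3.07% of 1305), and DESeq2 called 24 genes (0.157%), of which 3 were Secondary genes. In bulk sums such as these, fewer nuclei of a kind and less RNA per nucleus cannot be told apart.

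The 3 genes called by DESeq2 were all lower in the Nubian goats and are named here after their values were seen. ADGRG6, an adhesion G protein-coupled receptor, was at 200.1 and 219 CPM in the Du'an goats and at 50.0 and 74.2 CPM in the Nubian goats (log2 fold change in edgeR -1.79 ± 0.24, unadjusted p = 0.00115, DESeq2 adjusted p = 0.000308). ERBB4, a receptor tyrosine kinase of the epidermal growth factor receptor family, was at 486 and 437 CPM against 153 and 202 CPM. AFF3, a nuclear protein of the AF4 family, was at 139 and 187 CPM against 50.7 and 70.5 CPM. In the stage table all 3 had a higher share in Primary than in Secondary, with 51.6% against 32.4% for ADGRG6, 53.1% against 45.3% for ERBB4 and 36.9% against 25.7% for AFF3.

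Both Nubian goats lay above both Du'an goats for 175 of the 1305 Secondary genes (13.4%) and below for 202 (15.5%), against 14.5% and 10.9% of all genes tested. In the mitosis group both Nubian goats lay above for 8 of 9 genes, with a median log2 fold change of 0.80, and for 3 of 3 genes of DNA replication. None of these passed the test. DIAPH3 had the smallest unadjusted p of the mitosis group (0.00907, log2 fold change 0.86 ± 0.19, 2 goats against 2), and it was 0.71 to 0.99 when 1 goat was left out. CENPF was at 84.2 and 106 CPM against 266 and 144 CPM (1.09 ± 0.38, unadjusted p = 0.0397). Its log2 fold change rested largely on Nubian goat 1 and was 0.53 without that goat, and that of TOP2A fell likewise from 0.82 to 0.28.

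The share of granulosa nuclei with a TOP2A UMI was 6.24% and 7.64% in the Du'an goats and 11.3% and 9.16% in the Nubian goats, while 1.21%, 3.83%, 3.50% and 2.14% of nuclei that led with another cell type's markers had one. After each nucleus was thinned to 1000 UMIs the shares were 3.61% (exact binomial 95% interval 3.02 to 4.28), 3.04% (2.58 to 3.56), 7.14% (6.59 to 7.72) and 4.46% (3.85 to 5.14). The intervals cover counting error only, and the smallest two-sided p that an exact permutation of 2 goats against 2 can give is 0.333. The thinned shares of the nuclei that led with another cell type's markers, 0.705%, 1.91%, 2.01% and 1.17%, lay below those of the granulosa nuclei of the same goat. The breeds did not separate by every measure of this kind. Nuclei with at least 3 mitosis genes, a rule chosen after seeing the data and not thinned, made up 15.7% and 21.0% in the Du'an goats and 22.4% and 19.2% in the Nubian goats. The share with a UMI of CIT, a kinase of cytokinesis, was 8.86% and 12.4% against 13.6% and 9.98%, and after thinning 4.03% and 4.58% against 7.46% and 4.49%, so Nubian goat 2 lay below Du'an goat 2 in each, after thinning by less than the counting error.

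Thinning to 1 depth largely fixes the median over many genes, so the medians are given without a reading. Over all 1305 genes the median thinned detection share was 12.8%, 12.6%, 11.8% and 12.6%, and for the genes listed under other stages it was 11.05%, 10.6%, 10.9% and 11.4%. Single genes differed widely between goats at the same depth. CACNA2D3 was detected in 6.13%, 26.7%, 10.9% and 7.28% of thinned nuclei, COL4A3 in 24.1%, 52.2%, 24.9% and 17.2%, and PCLO in 41.0%, 35.2%, 22.1% and 24.9%.

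An estimate of how much of each goat's granulosa nuclei followed the Secondary profile gave 0.942%, 0%, 16.2% and 12.9%, but the profiles of Secondary and Primary were nearly collinear. With at least 4 gate markers it was 0%, 0%, 19.8% and 11.3%, and with all listed genes 7.12%, 0%, 27.3% and 10.7%. The same estimate put 75.9% of Du'an goat 2 in Primary (76.8% and 65.6% under these settings) and 73.2% of Nubian goat 1 in Antral (72.4% and 71.8%). Thinned nuclei, whose shares at 1000 UMIs are set against profiles of full depth, left residuals of 8.56 to 9.63 points in place of 2.78 to 3.19, so that fit is not read here.

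Finally, the granulosa nuclei with a TOP2A UMI were set against those without, to see which Secondary genes accompanied it in the same nuclei. There were 239, 399, 1027 and 418 such nuclei, with median depths of 5050, 7655, 5014 and 5219 UMIs against 4504, 5498, 3270 and 4083 for the rest. These are the nuclei in which the stage genes were found, so the values are a description. Of the 102 genes listed under Secondary alone outside the mitosis list, 86.3%, 92.2%, 85.3% and 92.2% were higher in the nuclei with TOP2A, against 51.8%, 49.5%, 37.8% and 48.5% of all genes at 5 CPM or more. All 4 goats showed this.

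The genes shared with Primary did not behave alike in the 4 goats. Of the 152 that differed by at least 10 points, 84.9%, 75.0% and 85.5% were higher in nuclei with TOP2A in Du'an goats 1 and 2 and Nubian goat 2, and 29.6% in Nubian goat 1. CTNND2 was at 448, 328, 105 and 452 CPM in nuclei with TOP2A and at 151, 165, 112 and 187 CPM in the rest. It was higher in 3 goats and slightly lower in Nubian goat 1. ACSBG1 was at 387, 354, 154 and 357 CPM against 180, 311, 235 and 189 CPM, again with Nubian goat 1 alone in the opposite direction.

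HSPA8 and SEPT4 were higher in nuclei with TOP2A in 4 of 4 goats, HSPA8 only barely so in Nubian goat 1 (68.7 against 67.5 CPM). With at least 3 mitosis genes in place of a TOP2A UMI, HSPA8 was lower in that goat (63.5 against 69.5 CPM) and higher in 3 of 4. CYP19A1, the Antral gene, was at 29.9, 332, 1493 and 312 CPM in the nuclei with TOP2A and at 11.03, 711, 1952 and 439 CPM in the rest, lower with TOP2A in 3 of 4 goats. LHCGR was lower in nuclei with TOP2A in each goat, at 5.69, 309, 538 and 89.1 CPM against 6.61, 1059, 984 and 243 CPM. INHBA, also listed under Antral alone, was instead higher with TOP2A in 3 of 4 goats. It was at 115, 523, 1792 and 493 CPM against 61.3, 813, 1502 and 453 CPM.

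**Figure D5:**
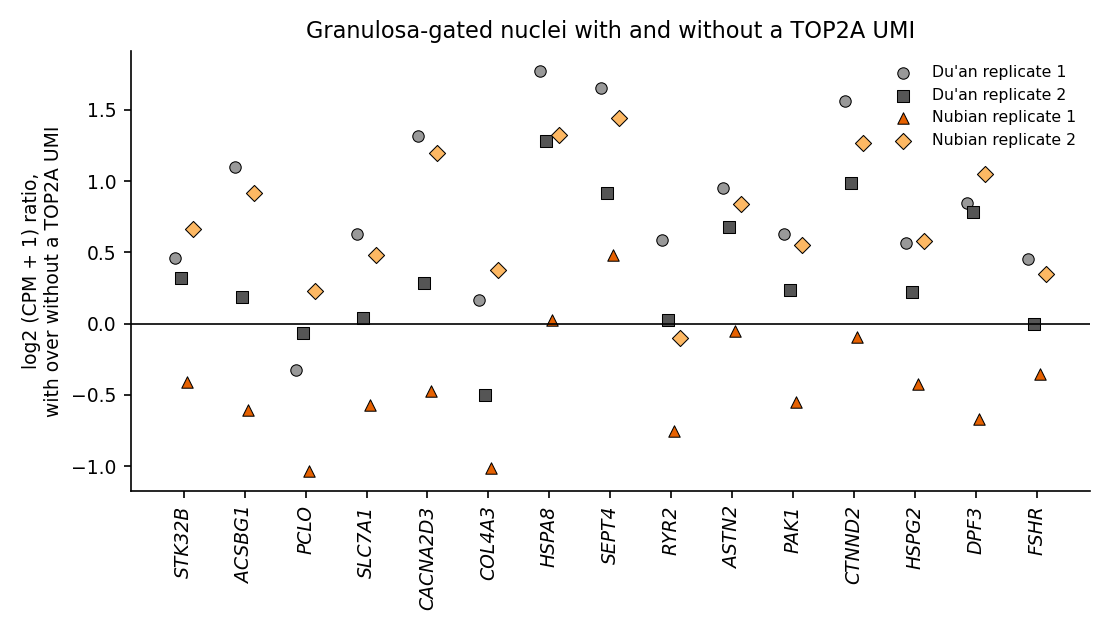
Log2 ratio of CPM + 1 between granulosa-gated nuclei with and without a TOP2A UMI for 14 leading Secondary genes and FSHR, with 1 symbol per goat and a line at equal levels. Nubian goat 1 (upright triangles) lies below the other 3 goats for each gene shown, and below 0 for most of them.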

How the data were processed

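Single-nucleus libraries of 4 ovaries (2 Du'an, 2 Nubian goats) were made on the 10x Genomics platform. The authors aligned and counted the reads with Cell Ranger (version 5.0.0 in the submitters' processing notes and methods, software version 3.1.0 in the matrix headers), and the deposited matrices hold UMI counts. The authors also deposited 2 tables of genes per stage and per subtype, whose detection shares are fractions of nuclei, multiplied here by 100. Their fold changes and p-values, which hold the authors' own comparisons over nuclei, were not used. The genome was given as an assembly number only, so no coordinates are printed.

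Nuclei within 2 SD of the mean in UMIs and genes and with at most 20% mitochondrial UMIs were kept (44872 of 48332), and a nucleus entered the granulosa gate with at least 3 of 11 markers detected and no other list more complete (22694 nuclei). Doublets were not called. Nuclei are not replicates, so UMIs were summed per goat and tested with edgeR 4.0.16 (quasi-likelihood, TMM, filterByExpr, Benjamini-Hochberg over all genes), with the goat as a block between gated and other nuclei and with no block between breeds. Genes of the gate and of the competing lists, 8 of them Secondary genes, were left out of counts between gated and other nuclei. DESeq2 1.42.0, other size factors, filters and gates, and leaving out each goat were alternatives. Both tests were first tested on simulated counts with known changes. Between gated and other nuclei 82% of 2-fold and 100% of 4-fold changes were called, with 12 false calls. Between breeds 5% and 71% were called, with 5 false calls. The labels do not say whether goats were kept or processed together, and p-values measure the spread between these animals.

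Named genes were the 15 largest and 10 smallest stage differences with a symbol, the granulosa identity and mural genes of the stage, and up to 3 genes per direction called between breeds. A few genes that this rule or the lists cover are not reported here by name. The members and lists were chosen with earlier results of these data known. Stage sizes were to be solved from genes listed in all 4 stages, but no gene is, so every pair of shares of a gene was used instead, and mixtures used the 459 genes listed in 3 stages. In 2 lists CYP11A1 and CYP17A1 were found under locus names through RefSeq synonyms. Log2 ratios within goats used a pseudocount of 1 CPM.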

Additional observations from a re-analysis of the deposited data

Results flagged for a closer look

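Of 38 sets of 4 goat values examined, 2 held a goat far from the other 3, by a rule under which chance alone marks about 1 in 20. DPF3 had a log2 ratio of -0.67 between nuclei with and without a TOP2A UMI in Nubian goat 1, against 0.85, 0.78 and 1.05 in the other goats. CACNA2D3 had a log2 ratio of 2.29 between granulosa-gated and other nuclei in Du'an goat 2, where its level was 478 CPM in granulosa nuclei against 78.3, 152 and 112 CPM in the other goats. No explanation was tested for either.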

How the results depend on the processing

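Between granulosa-gated and other nuclei the count of Secondary genes called higher (842) stayed between 655 and 925 and that called lower (51) between 34 and 57 under all alternatives but one. With library sizes alone in place of TMM factors 435 were higher and 97 lower. Leaving out 1 goat gave 655 to 744 and 42 to 44. Without the goat as a block 682 were higher and 34 lower. STK32B lost the call under 5 alternatives and HSPG2 under 2 (without the block and with library sizes alone), and HSPA8 turned to -0.41 with no filter on nuclei. The fits with library sizes alone, the fit with other nuclei limited to those that lead with another list (814 and 57), the crossed block, the mixture over all listed genes and the rule of 3 mitosis genes were chosen after seeing the data.

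Between breeds edgeR called 0 Secondary genes under each alternative and DESeq2 called 3. Goats with the same replicate number deviated in opposite directions (r = -0.438), and with the replicate block 0 genes were called (302 at an unadjusted p under 0.05, 17 of them Secondary genes) and with the crossed pairing also 0 (833 and 101). Uncalled directions turned without 1 goat for ACSBG1 (-0.56 to 0.11), CACNA2D3 (-1.86 to 0.72), SEPT4 (-0.14 to 0.39) and CTNND2 (-0.66 to 0.23).

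The count of 211 genes at 10 points was 589 at 5 points and 23 at 20 points. With nuclei as they are the median detection shares were 38.5%, 43.6%, 32.9% and 37.3%. The Secondary part of the mixture was 0% in both Nubian goats with thinned nuclei, a fit that the profiles of full depth make unusable, and was 27.3% in Nubian goat 1 with all listed genes. With at least 3 mitosis genes in place of a TOP2A UMI the mean log2 ratio turned from -0.06 to 0.011 for RYR2 and from -0.15 to 0.061 for CYP19A1, and the number of goats with a higher level changed by 1 for HSPA8, CTNND2, SLC7A1, STK32B, RYR2, FSHR and RUNX2. The breed comparison rests on 2 goats per breed, and whether its calls depend on depth was not tested.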

Other observations

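The Primordial stage and the common progenitor subtype, which stand in separate tables, had detection shares within 0.1 points of each other for 1303 of the 1398 genes listed under both, with a largest gap of 0.3 points. Over these genes the profiles of both groups could not be told apart beyond 0.3 points. The stage table covered 1.13 nuclei for each nucleus of the subtype table, as solved from the size of that group in each.

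Among genes shared with Primary, those with the largest gap above it in Secondary after STK32B were ND2 (80.1% against 69.3%), WDPCP (36.4% against 26.2%), SLC12A7 (41.4% against 33.1%) and EDA (49.4% against 41.1%). Those with the largest gap below Primary were ADGRG6, SNAP91 (36.7% against 52.7%), PPARG (68.1% against 81.2%) and MKX (61.9% against 74.7%). These genes were chosen after their values were seen.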
